A study of Mesocricetus auratus with 24 samples.

Results

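The 9 scaffolds described here are those whose share of sequenced reads was about 0.497 of the usual level in a Syrian hamster cell culture that had bypassed senescence. They are KB708172.1, KB708178.1, KB708217.1, KB708219.1, KB708236.1, KB708250.1, KB708283.1, KB708293.1 and KB708359.1. They were chosen because their coverage in the bypass libraries was lower than in the senescent libraries of the same culture (a log2 ratio under -0.5), so that contrast is described for them and not tested. All positions on these scaffolds were used, which are 133731 of the 3197735 CpG positions of the series, on 9 of 7946 scaffolds and contigs. The last positions listed on the 9 scaffolds add up to a span of 70.5 Mb.

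Reduced representation bisulfite sequencing (RRBS) gave the methylation of single cytosines in 24 libraries, 4 in each of 6 groups, all of fetal cells from a cell transformation assay. The bypass culture and the senescent culture were one culture sampled on day 94 and on day 48. It was grown from a colony of transformed morphology, treated with benzo[a]pyrene (B[a]P) at 5 µg/mL, from pooled female and male fetuses, and typed as male. The 4 libraries at each of those times are technical replicates, so their spread says nothing about other cultures. MT colonies and N colonies were cultured for 19 to 25 days, each from a colony that had received B[a]P and looked transformed (MT) or normal (N), and B[a]P pools and vehicle pools (0.2% DMSO) are about 60 colonies each, collected on day 9. These 4 groups are biological replicates from the cells of a single male fetus. The culture therefore differs from them in the fetuses it came from as well as in its age.

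RRBS cuts the genome at a CpG-containing site and sequences the short fragments, so the same CpG-rich places are read in each library. The reads over a place depend on how much of that DNA entered the library and on how well its fragment was cut, selected and amplified. Bisulfite turns unmethylated cytosine into a base read as T, and the methylation level is the share of reads that still carry C. A position can read as partly methylated where cells differ from each other or where the maternal and paternal copies differ. Senescence is a lasting arrest of cell division, and cells that bypass it resume division.

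Coverage summed over all positions ran from 30316233 to 67276906 per library, over 809562 to 1484688 positions with strands listed apart and at least 10 reads each. The 9 scaffolds held 693907 to 984253 of these counts in the bypass libraries, 1543295 to 2086462 in the senescent libraries and 1175853 to 2610406 in the other 16. PCR copies cannot be told from separate molecules in these counts. No source used here names the genome build of the coordinates, and no annotation of it was used, so places are given by scaffold, start and end and no gene is named.

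The 9 scaffolds took 2.09%, 2.198%, 2.17% and 2.199% of the coverage on KB scaffolds in bypass replicates 1 to 4, against 4.25%, 4.24%, 4.17% and 4.33% in senescent replicates 1 to 4. The groups did not overlap, and every bypass library lay below all 20 others. Set against the mean of the 16 colony and pool libraries, with other scaffolds centred at 1, relative coverage was 0.497 ± 0.0144 in bypass and 1.01 ± 0.0169 in senescent libraries (SD, n = 4 technical replicates each). The colonies stood at 0.998 ± 0.0141 (MT) and 0.990 ± 0.0139 (N), and the pools at 1.01 ± 0.00939 with B[a]P and 1.01 ± 0.00450 with vehicle (SD, n = 4 each). The 20 libraries outside bypass lay between 0.973 and 1.03. Fewer positions reached 10 reads as well, with 2.56% ± 0.0695 of the listed positions on these scaffolds in bypass and 4.31% ± 0.0453 in senescent libraries (SD, n = 4).

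In the comparisons that took no part in choosing the scaffolds, coverage differed by less than the spread between replicates. MT minus N colonies came to 0.0113 in log2 relative coverage (exact two-sided permutation p = 0.486, adjusted over 2 tests 0.857). B[a]P minus vehicle pools came to -0.0012 (exact two-sided permutation p = 0.857, adjusted 0.857). With 4 libraries against 4 there are 70 assignments and the smallest p is 0.0286.

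**Figure D1:**
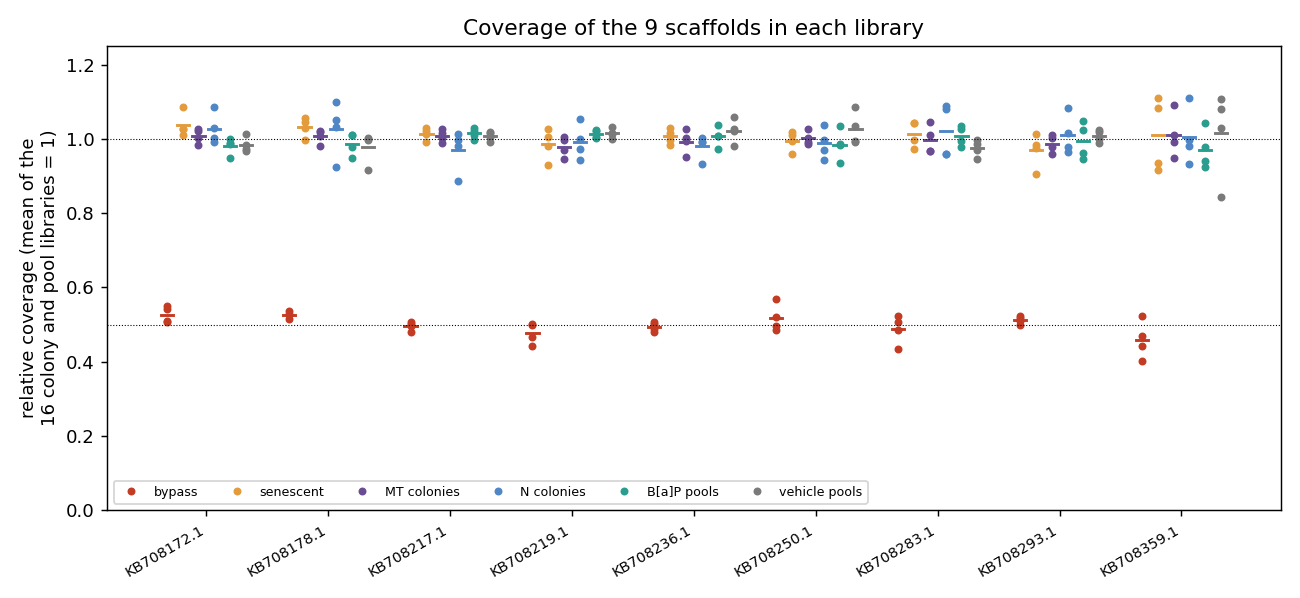
Relative coverage (mean of the 16 colony and pool libraries = 1) of each of the 9 scaffolds in each library. Points are libraries, short bars are means of 4, and dotted lines mark 1 and 0.5. Every bypass library lies below 0.57 on every scaffold, and every other library lies above 0.84.

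Each of the 9 scaffolds was chosen for its own log2 ratio under -0.5, so the lower coverage of each was set by that choice. The log2 ratio of bypass over senescent coverage ran from -0.92 on KB708293.1 to -1.14 on KB708359.1. KB708217.1, which holds 34.3% of the positions of the 9 scaffolds, stood at 0.496 ± 0.0122 in bypass and 1.01 ± 0.0159 in senescent libraries (SD, n = 4). KB708359.1 holds 1.44% of the positions and had the widest spread, with 0.402, 0.442, 0.469 and 0.523 in bypass replicates 1 to 4 and 0.915 to 1.11 in senescent libraries. Over the 9 scaffolds single bypass libraries ranged from 0.402 to 0.567, and single libraries of the other groups from 0.843 to 1.11. The scaffolds differ in how densely they were read, from 551 listed positions per Mb on KB708178.1 to 4811 on KB708217.1.

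The ratio was compared for 251 scaffolds for which every library of the culture listed 200 positions or more, of which 10 (3.98%) were under -0.5. KB708158.1 was under that limit as well, at -0.63, but is not one of the 9 and is counted with the other KB scaffolds. The next outside the limit was KB708320.1 at -0.24, and the highest of all was KB708360.1 at 0.22. Among smaller scaffolds, which were not eligible, 1 of 38 with fewer positions, but at least 50, was under -0.5 (KB708330.1, -0.83). Of 65 with at least 20 but under 50 positions, 4 were under -0.5 and 2 were over 0.5.

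The lower coverage ran along the scaffolds. In bins of 250 kb for which all 8 libraries of the culture listed 50 positions or more, 141 of 143 bins had a log2 ratio of bypass over senescent coverage under -0.5, with a median of -1.04. When the 50 positions were counted over the 8 libraries together, 214 of 220 bins were under -0.5. In 139 of the 143 bins all 4 bypass libraries lay below all 4 senescent ones, and in 122 they lay below all 20 other libraries. Of the 4246 such bins on all KB scaffolds, 3.96% were under -0.5, in 5.32% the bypass libraries lay below the senescent ones, and in 3.25% they lay below all 20 others. These bins lie on scaffolds chosen for low coverage, and nothing is read from their counts. By scaffold the bin medians ran from -0.90 on KB708293.1, over 14 bins, to -1.11 on KB708178.1, over 5 bins. The senescent means of the same bins stayed between -0.16 and 0.37 on the log2 scale against the 16 other libraries.

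**Figure D2:**
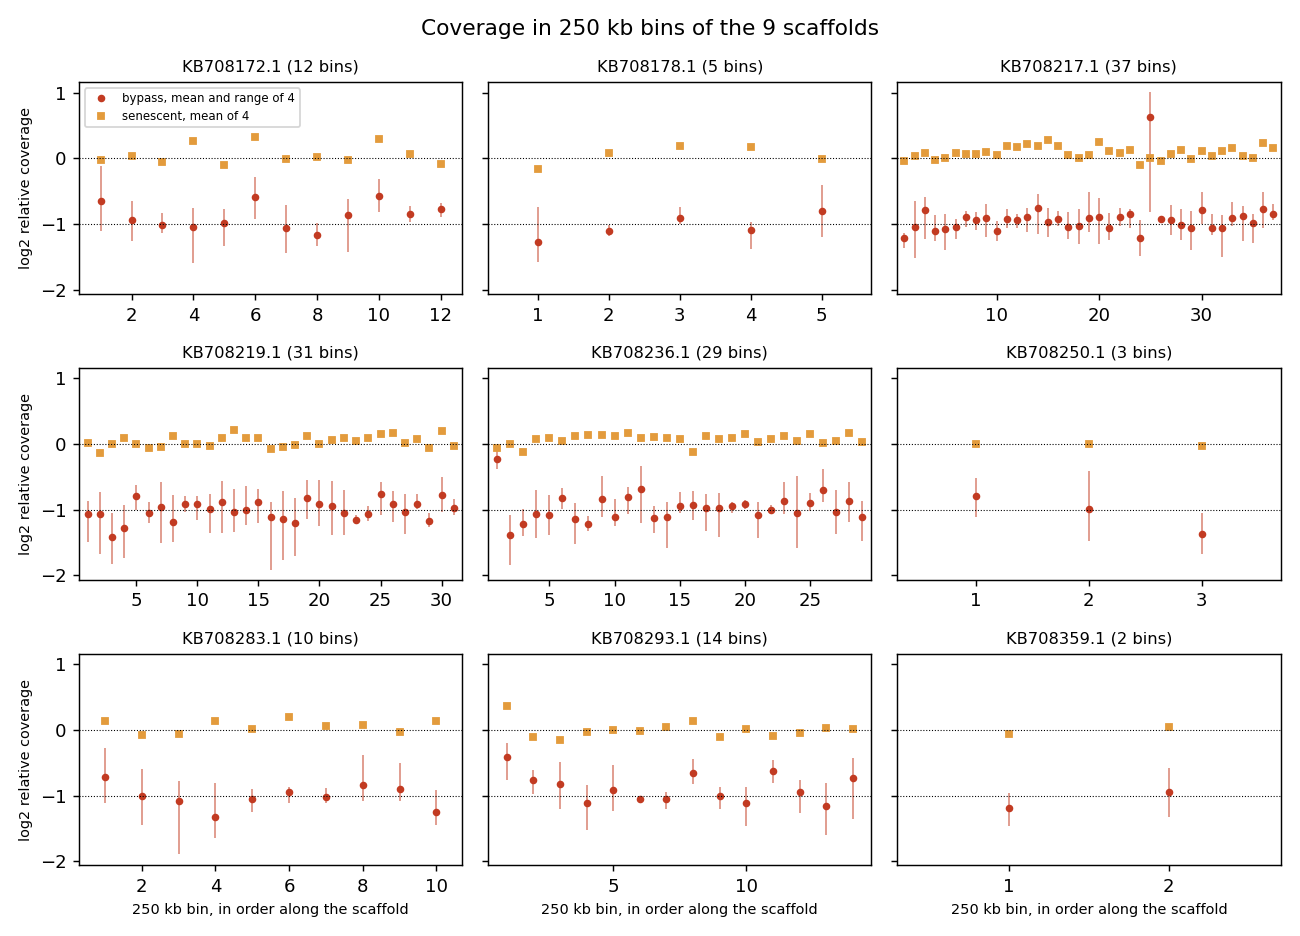
Log2 relative coverage (mean of the 16 colony and pool libraries = 0) in the 143 bins of 250 kb, in order along each scaffold. Circles and lines are the mean and range of the 4 bypass libraries, and squares are the mean of the 4 senescent libraries. In all but 2 bins the log2 ratio of bypass over senescent coverage is under -0.5; the bin that stands highest, on KB708217.1, has 1 bypass library below 0.

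The 2 bins that did not follow their scaffold were bin 25 of KB708217.1, with a log2 ratio of 0.62, and bin 1 of KB708236.1, with -0.17. In each of them a single window of 1 kb carried the exception, and without the window of highest coverage in every bin all 143 bins were under -0.5 (highest -0.61). The window KB708217.1:6175001-6176000 took 135, 8.65, 154 and 169 CPM (coverage counts scaled to the same total in every library) in bypass replicates 1 to 4, against 2.37, 1.47, 17.3 and 6.27 in senescent replicates 1 to 4. Bypass replicate 2 was not raised and lay within the range of the other 20 libraries, 0.940 to 29.7. The window KB708236.1:243001-244000 took 99.7, 93.7, 110 and 82.6 CPM in the 4 bypass libraries, against 4.70 to 29.9 in the other 20, and here the groups did not overlap. Methylation was low in both: in bypass replicates 1 to 4 it was 0.541%, 8.08%, 0.118% and 0.0290% in the first window and 0.112%, 1.03%, 0% and 0% in the second.

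Another window was raised in both times of the culture. KB708293.1:111001-112000 took 61.6 ± 10.2 CPM in bypass and 49.9 ± 6.59 in senescent libraries (SD, n = 4), against 0 to 5.39 in the other 16 libraries. Its methylation was 51.3% to 56.0% in bypass and 45.9% to 56.5% in senescent libraries. The few other libraries that listed it, at 0.874 to 5.39 CPM, had higher levels. These were 93.5% and 70.5% in MT colonies 2 and 3, 92.0% and 88.5% in N colonies 1 and 3, and 87.8% in vehicle pool 4. These 3 windows were singled out after their values were seen, as at least 4 times the level of the 16 other libraries plus 1, and at least 20 CPM. By that measure 3 of 334 windows of the 9 scaffolds (0.898%) and 5 of 9261 other windows (0.0540%) were raised in bypass, and 1 of 387 (0.258%) and 3 of 9280 (0.0323%) in senescence.

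The size of the ratio depended on which positions were counted, since positions under 10 reads are not listed. Relative coverage in bypass was 0.461 over positions of at least 20 reads and 0.619 over the 1059 positions listed in all 8 libraries of the culture. Where each of the 16 colony and pool libraries had 40 reads or more, at 180 positions of the 9 scaffolds, it was 0.550 with unlisted positions counted as 0 reads and 0.552 with 9 reads. At these positions senescent libraries had 0.975 ± 0.0329 (SD, n = 4).

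Methylation levels were compared over the 650 windows of 1 kb on the 9 scaffolds, and 21387 on other KB scaffolds, that had at least 3 positions in all 24 libraries. On the 9 scaffolds mean methylation was 31.9%, 31.1%, 32.0% and 32.0% in bypass replicates 1 to 4, all above the senescent libraries, which averaged 29.0% ± 0.974 (SD, n = 4; range 28.3% to 30.5%). The difference of 2.71 percentage points stood beside 2.68 points on the other scaffolds, where bypass had 34.2% ± 0.137 and senescence 31.5% ± 0.364 (SD, n = 4). The 9 scaffolds minus the others came to -2.44 ± 0.312 points in bypass and -2.47 ± 0.649 points in senescence (SD, n = 4). This likeness depended on the positions counted. With positions of 20 or more reads bypass minus senescence was 0.990 points on the 9 scaffolds, and -1.74 relative to the others, where it was 0.031 as first given. With windows weighted by reads it was 1.33 relative to the others.

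The colonies had levels on the 9 scaffolds of 27.7% ± 1.01 (MT) and 26.8% ± 1.32 (N), and the pools of 26.8% ± 0.645 with B[a]P and 26.5% ± 0.895 with vehicle (SD, n = 4 each). Neighbours in this order overlapped. Senescent libraries minus MT colonies came to 1.30 points (exact two-sided permutation p = 0.0857, adjusted over 6 tests 0.514). The senescent libraries are technical replicates of the same culture, so p-values of this comparison do not speak for other cultures. MT minus N colonies came to 0.939 points (exact permutation p = 0.314, adjusted 0.557) and B[a]P minus vehicle pools to 0.269 points (exact permutation p = 0.657, adjusted 0.789). The same tests on the 9 scaffolds minus the others gave -0.535, -0.388 and -0.105 points, with adjusted exact permutation p of 0.557, 0.557 and 0.8286. The 9 scaffolds lay below the others in each of these groups, by means of -1.93 points (MT colonies), -1.55 (N colonies), -1.50 (B[a]P pools) and -1.39 (vehicle pools).

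**Figure D3:**
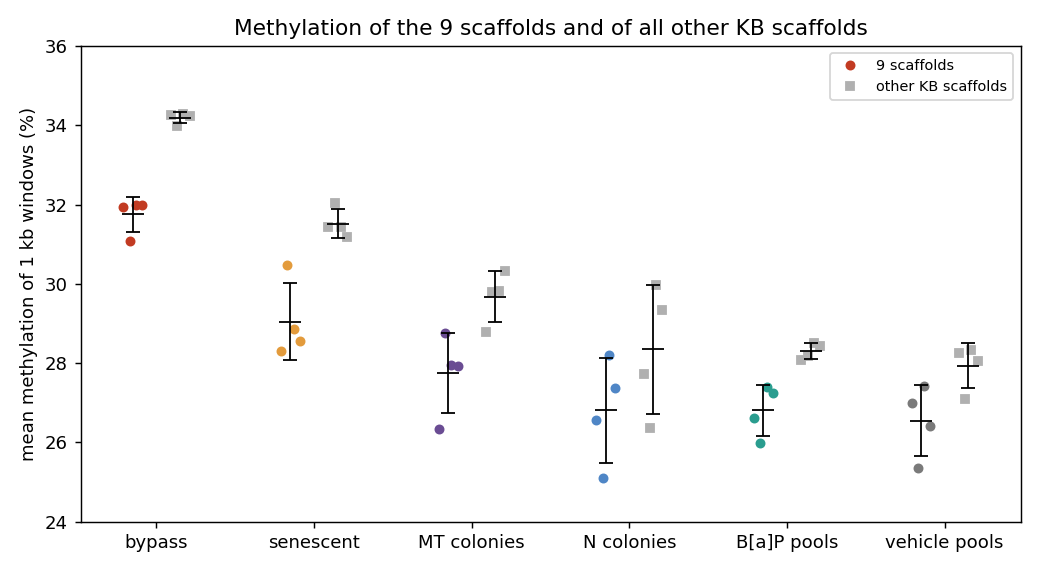
Mean methylation (%) of 1 kb windows in each library, with coloured circles for the 650 windows of the 9 scaffolds and grey squares for the 21387 windows of other KB scaffolds. Bars are means and SD of 4 libraries, and the axis starts at 24%. The bypass libraries are highest on both, and the 9 scaffolds lie below the others in every group.

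The scaffolds differed more from each other than the groups did. In bypass, mean methylation was 44.9% ± 0.913 on KB708217.1, over 238 windows, and 2.04% ± 0.371 on KB708359.1, over 7 windows (SD, n = 4). KB708219.1, with 121 windows, had 22.8% ± 0.674 in bypass and 19.2% ± 0.574 in senescence, and KB708236.1, with 98 windows, had 31.6% ± 1.22 and 28.4% ± 0.664 (SD, n = 4). On KB708283.1 the levels were 12.3% ± 1.38 in bypass and 11.8% ± 0.737 in senescence, and on KB708359.1 senescence had 2.17% ± 0.480 (SD, n = 4), so both of these overlapped.

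The difference between bypass and senescence is given, with no test, by how methylated a window was in the 16 colony and pool libraries. Among the 399 windows of the 9 scaffolds under 20% there, bypass averaged 7.59% ± 0.750 and senescence 4.19% ± 0.700 (SD, n = 4), a difference of 3.398 points against 2.63 on other scaffolds. Among the 60 windows at 20 to 50%, bypass had 47.6% ± 0.888 and senescence 44.9% ± 1.79. This difference of 2.70 points stood beside 6.90 points in the 1866 such windows elsewhere, where bypass had 51.6% ± 0.233 and senescence 44.7% ± 1.15. At 50 to 80% the differences were 0.790 points on the 9 scaffolds and 2.01 elsewhere, and at 80 to 100% they were 2.08 and 1.13 points.

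Between bypass and senescence, gains and losses of at least 10 points were both more frequent on the 9 scaffolds, given here with no test. Bypass exceeded senescence by that much in 118 of 650 windows (18.2%) and fell short of it in 51 (7.85%). On other scaffolds the shares were 13.9% and 4.06% of windows. Reads were fewer on the 9 scaffolds in bypass, with a median of 342 per window and library against 571 elsewhere. Among windows with 100 to 300 reads in bypass the shares were 23.1% and 10.4% of 268 windows on the 9 scaffolds, and 20.7% and 8.71% of 3260 elsewhere. Against vehicle pools bypass was higher by that much in 26.2% of windows on the 9 scaffolds and lower in 7.08%, beside 25.2% and 4.55% elsewhere. Among windows with 100 to 300 reads in bypass these shares were 34.0% and 10.1% on the 9 scaffolds, and 35.3% and 9.69% elsewhere, so gains were not more frequent there. In comparisons without the bypass libraries the shares on the 9 scaffolds lay near those elsewhere. Senescent libraries were at least 10 points above MT colonies in 65 of the 650 windows and below in 35 (5.38%), beside 12.1% and 5.89% elsewhere. MT colonies were above N colonies in 9.08% and below in 4.77%, beside 9.75% and 3.99%. B[a]P pools were above vehicle pools in 6.77% and below in 6.62%, beside 6.93% and 5.29%.

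Single positions were partly methylated less often on the 9 scaffolds in bypass. Among positions with 20 to 40 reads, those above 10% and below 90% methylation made up 8.35%, 4.07%, 4.71% and 2.38% on the 9 scaffolds in bypass replicates 1 to 4. On other scaffolds of the same libraries they made up 12.4%, 6.92%, 7.93% and 3.81%. The 9 scaffolds minus the others thus came to -2.90 ± 1.101 points in bypass and 1.17 ± 0.648 points in senescence (SD, n = 4). In the remaining groups the difference was 1.29 ± 1.15 (MT colonies), 1.04 ± 0.543 (N colonies), 1.45 ± 1.02 (B[a]P pools) and 0.959 ± 0.686 (vehicle pools; SD, n = 4). It was below 0 in 4 of 4 bypass libraries, between -4.07 and -1.43, and above 0 in all 20 others, between 0.2997 and 2.88. Positions of 41 to 80 reads gave -3.43 ± 0.930 points in bypass and 1.63 ± 1.11 in senescence, and positions of 10 to 19 reads gave -1.73 ± 0.748 and 0.643 ± 0.575 (SD, n = 4). In that lowest class 1 senescent library and 1 B[a]P pool lay below 0 as well.

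**Figure D4:**
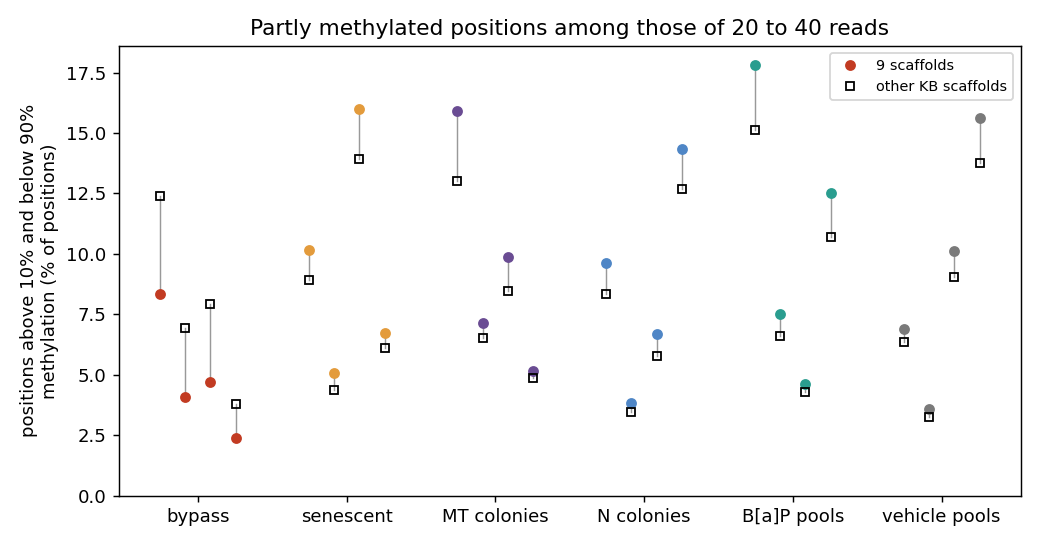
Share of positions above 10% and below 90% methylation, in percent of the positions with 20 to 40 reads, in each library. Coloured circles are the 9 scaffolds and open squares other KB scaffolds of the same library, joined by a line. The circle lies below the square in the 4 bypass libraries and above it in the 20 others.

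This share was looked at after other values of the bypass libraries were known, and it is given with no test. The share itself varied between libraries of 1 group, on other scaffolds from 3.81% to 12.4% in bypass. In bypass, 8 of the 9 scaffolds lay below the other scaffolds in 4 of 4 libraries, and KB708172.1 did in 3. Their mean differences ran from -1.75 points on KB708178.1 to -4.54 on KB708283.1. On KB708217.1, the largest by positions, the difference was -2.24 points in bypass and 2.99 in senescence. Outside bypass the scaffolds were not alike. The difference was above 0 in all 20 libraries on KB708178.1 and KB708217.1 and below 0 in 2 of 20 on KB708236.1. On the remaining 6 it was below 0 in 10 to 17 of the 20 libraries, with 17 each on KB708283.1 and KB708359.1, where the senescent means were -0.744 and -1.96 points. The values above 0 of the 9 scaffolds together thus did not hold for most of them singly. Positions were matched by reads, not by separate molecules, and the part of molecule number in these shares was not tested.

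Windows of intermediate methylation were taken as those at 30 to 70% in the mean of the 16 colony and pool libraries, 111 on the 9 scaffolds and 2977 elsewhere. On the 9 scaffolds they averaged 59.3% ± 1.72 in bypass and 58.4% ± 1.90 in senescence, and elsewhere 64.1% ± 0.198 and 60.0% ± 0.998 (SD, n = 4). Windows over 80% made up 16.2% on the 9 scaffolds and 24.0% elsewhere in bypass, and 6.31% and 13.5% in senescence. The SD over windows was 20.9 points in bypass and 16.2 in senescence on the 9 scaffolds, and 19.5 and 18.1 elsewhere. The distance of a window from 50%, averaged over windows, was 22.3 ± 2.14 points in bypass and 17.5 ± 1.89 in senescence on the 9 scaffolds, and 22.7 ± 0.971 and 19.8 ± 1.79 elsewhere (SD, n = 4). These windows had a median of 221 reads in bypass and 479 in senescence on the 9 scaffolds, against 395 and 452 elsewhere. Among windows with 100 to 300 reads in the group concerned, the order on the 9 scaffolds turned round. There the SD over windows was 19.5 points in bypass, over 73 windows, and 25.3 in senescence, over 24, and windows over 80% made up 13.7% and 16.7%. Elsewhere the SD in that range was 19.8 points in bypass and 18.7 in senescence, and windows over 80% made up 24.8% and 18.0%. The wider values of the 9 scaffolds in bypass were thus not present at like reads, in windows that are not the same in the 2 groups.

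The 3 that stood highest and the 3 that stood lowest in bypass are given. KB708217.1:7835001-7836000 stood at 97.7% ± 4.35 in bypass and 80.4% ± 12.1 in senescence (SD, n = 4), with 15.1% to 100% in the 16 others. KB708219.1:3398001-3399000 stood at 96.3% ± 7.44 in bypass and 76.5% ± 15.5 in senescence, with 23.2% to 99.3% in the others. KB708172.1:11970001-11971000 was at 96.2% ± 4.68 in bypass and already at 95.1% ± 5.73 in senescence, with 24.1% to 100% in the others. The spread of the 16 other libraries covered the bypass values of the first and the last of these windows. A high value there was thus not limited to bypass.

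Downwards, KB708283.1:3534001-3535000 held 34.1%, 23.8%, 15.4% and 8.78% in bypass replicates 1 to 4, against 66.0%, 65.7%, 80.0% and 66.2% in senescent replicates 1 to 4, from 223 to 1275 reads per library. The groups lay far apart, while the MT colonies alone ran from 12.9% to 83.2%. KB708217.1:2615001-2616000 held 19.8% ± 14.6 in bypass and 44.9% ± 10.2 in senescence (SD, n = 4). KB708250.1:2771001-2772000 was low at both times, with 9.76% ± 10.7 in bypass and 5.27% ± 10.5 in senescence (SD, n = 4).

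Over all windows, replicates spread more on the 9 scaffolds in bypass. The median SD between the 4 libraries of a window was 5.63 points on the 9 scaffolds and 4.09 elsewhere in bypass. It was 3.57 and 3.52 in senescence, 3.21 and 3.37 in MT colonies, and 3.64 and 3.53 in N colonies. The B[a]P pools had 2.92 and 3.31, and the vehicle pools 3.47 and 3.54. By reads per window, the difference in bypass was present in the classes of few reads and not in those of more. Under 150 reads the median SD in bypass was 12.4 points on the 9 scaffolds, over 56 windows, and 9.44 elsewhere, and at 150 to 300 reads it was 9.64 and 8.26. At 300 to 600 reads it was 4.43 and 5.75, and above 600 reads 2.11 and 2.22. At 150 to 300 reads the 9 scaffolds also had the higher value in senescence (10.2 points, and 8.39 elsewhere) and N colonies (12.9 and 12.4). The same held in B[a]P pools (12.6 and 9.64) and vehicle pools (13.3 and 10.1), while MT colonies had the lower value there. The higher value in that class was thus not limited to bypass. At 300 to 600 reads every other group had the higher value on the 9 scaffolds, as in senescence with 7.27 points and 5.51 elsewhere.

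**Figure D5:**
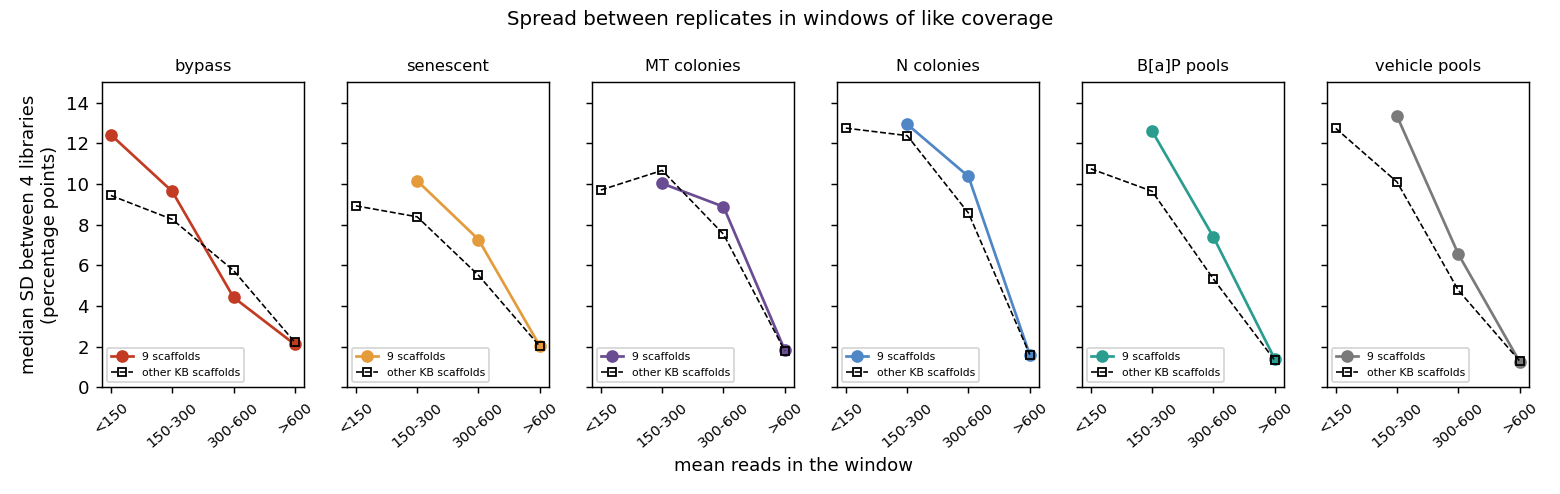
Median SD between the 4 libraries of each group, in percentage points, over windows grouped by mean reads per library. Filled circles are the 9 scaffolds and open squares other KB scaffolds; classes with under 20 windows are not drawn. The spread falls with reads in nearly all groups, and at 300 to 600 reads the circle lies below the square in bypass and above it in the other groups.

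Windows were also tested one by one across all scaffolds, with a quasi-binomial model of methylated and unmethylated reads. Calls needed group means 10 points or more apart and an adjusted p below 0.05. Between bypass and senescence 27 of 555 windows of the 9 scaffolds were called higher (4.86%) and 4 lower (0.721%), and of all windows 3.31% were called higher and 0.304% lower. Without overlap of the groups, 60 were higher (10.8%) and 14 lower (2.52%), beside 8.72% and 1.86% of all windows. That contrast chose the scaffolds, and nothing is read from these counts. The 27 windows lay on all 9 scaffolds and had a median difference of 26.8 points. edgeR's quasi-likelihood test called 0 of the 555 windows, with 74 below an unadjusted p of 0.05, where the quasi-binomial test had 141. Over all 24638 windows edgeR called 0, with 2686 at that level, where the quasi-binomial test had 4913.

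The largest differences upwards are given as values. KB708217.1:6403001-6404000 held 100%, 87.3%, 100% and 100% in bypass replicates 1 to 4, from as few as 42 reads in a library. Senescent replicates 1 to 4 had 15.3%, 0%, 51.0% and 0%. In this window MT colonies ran from 20.6% to 100% and N colonies from 0.528% to 85.0%. KB708219.1:7478001-7479000 held 69.2% ± 24.3 in bypass and 7.66% ± 7.15 in senescence (SD, n = 4), and it averaged 3.31% in MT colonies and 9.84% in vehicle pools. KB708219.1:6628001-6629000 held 95.7% ± 8.68 and 45.8% ± 20.4, KB708172.1:11510001-11511000 held 70.6% ± 19.4 and 29.2% ± 12.1, and KB708217.1:2039001-2040000 held 61.2% ± 12.4 and 21.1% ± 15.1 in bypass and senescence (SD, n = 4). In all 5 the groups did not overlap.

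Downwards, beside KB708283.1:3534001-3535000 above, KB708219.1:1663001-1664000 held 57.8% ± 8.81 in bypass and 89.3% ± 6.40 in senescence, and KB708217.1:3486001-3487000 held 60.1% ± 12.4 and 85.8% ± 8.84 (SD, n = 4). KB708178.1:1588001-1589000, read 1307 to 2771 times per library, held 42.4%, 37.7%, 28.3% and 44.0% in bypass replicates 1 to 4 and 56.6%, 69.7%, 54.6% and 60.2% in senescent replicates 1 to 4. In the 16 other libraries it averaged 48.5% to 55.4% by group. KB708283.1:3534001-3535000 was called under 13 of 14 other settings of the test, and the other 8 named windows under 1 to 9 of 12 to 15.

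Against vehicle pools, 98 of 484 windows of the 9 scaffolds were higher in bypass (20.2%) and 11 lower (2.27%), and of all windows 22.7% were higher and 1.55% lower. Without overlap of the groups, 85 were higher (17.6%) and 9 lower (1.86%), beside 21.5% and 2.05% of all windows. The shares on the 9 scaffolds thus lay near those of the whole genome. The bypass libraries are the same as in the comparison with senescence. The vehicle pools are younger and come from a single male fetus, while the culture came from pooled fetuses. As technical replicates of the same culture, the bypass libraries give p-values against vehicle pools that do not speak for other cultures. edgeR called 13 of the 484 windows higher and 0 lower, with 109 at an unadjusted p under 0.05. Over all 20019 windows it called 744 higher and 13 lower, with 4837 at that level.

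KB708217.1:8278001-8279000 held 100%, 100%, 99.5% and 74.9% in bypass replicates 1 to 4, against 19.0%, 16.7%, 7.35% and 22.7% in vehicle pools 1 to 4 (adjusted p = 0.000437, quasi-binomial test). All bypass libraries lay above all vehicle pools. Senescent libraries averaged 53.6% ± 25.8 (SD, n = 4) and, at 21.6% to 83.6%, overlapped both. KB708219.1:6628001-6629000 held 95.7% ± 8.68 in bypass and 19.1% ± 5.95 in vehicle pools (SD, n = 4; adjusted p = 0.000671, quasi-binomial test). KB708219.1:7517001-7518000 held 86.2% ± 9.52 and 24.7% ± 11.3 (SD, n = 4; adjusted p = 0.00119, quasi-binomial test). These 3 windows were called under every other setting of the test that could be fitted, edgeR included.

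KB708172.1:11510001-11511000 held 70.6% ± 19.4 in bypass and 5.36% ± 6.18 in vehicle pools (SD, n = 4; adjusted p = 0.000106, quasi-binomial test), and was lost with edgeR (adjusted p = 0.0841). KB708219.1:7478001-7479000 rose to 69.2% ± 24.3 in bypass, against 9.84% ± 13.3 in vehicle pools (SD, n = 4), and was called under 7 of 12 other settings. Of the windows called lower, KB708217.1:1650001-1651000 was at 55.3% ± 20.1 in bypass, against 97.6% ± 4.58 in vehicle pools. KB708217.1:929001-930000 was at 21.4% ± 5.08, against 54.4% ± 13.0 (SD, n = 4; adjusted p = 0.00385 and 0.00409 in this order, quasi-binomial test). Senescent libraries had 79.5% ± 11.2 in the first and already 20.6% ± 14.5 in the second (SD, n = 4). MT colonies ran from 0% to 71.1% in the second. KB708236.1:6053001-6054000 was at 11.7% ± 14.8 in bypass, against 66.4% ± 17.4 in vehicle pools. KB708217.1:7706001-7707000 was at 36.1% ± 22.4, against 80.3% ± 7.02, with 51.8% ± 8.43 in senescent libraries. KB708283.1:3534001-3535000 was at 20.5% ± 10.9, against 51.9% ± 9.34 (SD, n = 4). edgeR called none of these 5 windows.

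Between the senescent culture and MT colonies, with a relative coverage of the 9 scaffolds of 1.01 and 0.998, 15 of 1397 windows were called higher (1.07%) and 5 lower (0.358%), and of all windows 1.15% were higher and 0.369% lower. Without overlap of the groups, 75 were higher (5.37%) and 41 lower (2.93%), beside 6.11% and 2.86% of all windows. These shares lay near those of the whole genome. Because the senescent libraries are technical replicates, the p-values against MT colonies do not speak for other cultures. edgeR called 0, with 113 windows of the 9 scaffolds below an unadjusted p of 0.05, where the quasi-binomial test had 227. Over all 29787 windows edgeR had 2775 at that level and the quasi-binomial test 5309. KB708217.1:1947001-1948000 held 19.2%, 5.54%, 14.6% and 0% in senescent replicates 1 to 4, against 100%, 100%, 87.0% and 88.8% in MT colonies 1 to 4 (adjusted p = 0.012, quasi-binomial test). It was called under 12 of 14 other settings, and N colonies had 71.0% ± 10.9 and vehicle pools 74.9% ± 16.1 (SD, n = 4).

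KB708219.1:7517001-7518000 held 58.5% ± 8.50 in senescent libraries and 16.0% ± 6.15 in MT colonies, and KB708217.1:2027001-2028000 held 58.0% ± 14.99 and 91.9% ± 2.78 (SD, n = 4; adjusted p = 0.0177 and 0.0179, quasi-binomial test). Each was called under 7 of the other settings, of 14 for the first and 12 for the second. KB708293.1:1345001-1346000 held 65.2% ± 9.47 in senescent libraries and 17.8% ± 9.55 in MT colonies, KB708217.1:6338001-6339000 held 93.1% ± 9.62 and 47.2% ± 9.39, KB708293.1:2903001-2904000 held 50.9% ± 8.95 and 6.04% ± 8.56, and KB708217.1:4789001-4790000 held 90.1% ± 7.35 and 53.4% ± 15.5 (SD, n = 4). KB708250.1:2771001-2772000 held 5.27% ± 10.5 in senescent libraries and 82.5% ± 24.7 in MT colonies, and KB708217.1:1019001-1020000 held 20.1% ± 11.9 and 71.3% ± 14.0 (SD, n = 4). These 6 were called under 0 to 3 of 12 to 14 other settings.

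Between MT and N colonies 0 of 1284 windows of the 9 scaffolds were called, as were 0% of all windows. By the quasi-binomial test 100 of the 1284 had an unadjusted p under 0.05, beside 2177 of all 26825 windows. edgeR called 0 and had 35 at that level, beside 781 of all windows. Without overlap of the groups, MT was higher in 24 windows of the 9 scaffolds (1.87%) and lower in 15 (1.17%), beside 2.17% and 0.969% of all windows. The smallest p belonged to KB708217.1:4286001-4287000, with 64.3% ± 13.5 in MT and 35.5% ± 7.38 in N colonies (SD, n = 4; adjusted p = 0.485, quasi-binomial test). KB708217.1:3726001-3727000 had 75.0% ± 11.3 and 31.1% ± 12.3, and KB708250.1:2864001-2865000 had 89.2% ± 11.2 and 54.6% ± 29.3 (SD, n = 4; adjusted p = 0.502 each, quasi-binomial test).

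Between B[a]P and vehicle pools 0 of 861 windows were called, as were 0% of all windows. By the quasi-binomial test 46 of the 861 had an unadjusted p under 0.05, beside 1172 of all 18421 windows. edgeR called 0 and had 21 at that level, beside 408 of all windows. Without overlap of the groups, B[a]P was higher in 13 windows of the 9 scaffolds (1.51%) and lower in 20 (2.32%), beside 1.64% and 1.23% of all windows. KB708217.1:1804001-1805000 had 90.4% ± 5.68 with B[a]P and 59.5% ± 13.2 with vehicle, KB708219.1:8914001-8915000 had 40.2% ± 20.9 and 88.7% ± 13.2, and KB708217.1:1050001-1051000 had 95.5% ± 9.09 and 67.6% ± 14.5 (SD, n = 4; adjusted p = 0.752 each, quasi-binomial test).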

How the data were processed

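RRBS libraries of 24 samples were used, with groups and replicate numbers from the labels. Per the labels' protocols, a commercial kit turned the DNA into libraries. The submitters' processing notes name methylKit 1.10.0 with R 3.6.1, Bismark 0.22.1 with Bowtie2, Trim Galore 0.5.0 and bcl2fastq 2.20.0.42, and give no setting. No source used here names the genome build. The authors' tables list, per the file headers, the coverage of each CpG position and strand as a count and the percent of reads carrying C or T. The deposited tables list no position under 10 reads, and positions are therefore missing where coverage is low.

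The number of methylated reads is coverage times percent over 100; up to a coverage of 1000, 100% of these values were whole to within 0.06 reads. Positions in the top 0.1% of coverage of a library were left out. Relative coverage is a library's share of coverage on KB scaffolds, divided by the library's median over 251 scaffolds and by the mean of the 16 colony and pool libraries. CPM are coverage counts on KB scaffolds, scaled to one total per library and divided by the same median.

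Windows of 1 kb needed 3 positions in each library compared, and to be tested a pooled methylation of 5 to 95%. Each was tested with a quasi-binomial logistic model, fitted in R 4.3.3 over all windows of all scaffolds, with dispersions squeezed by limma 3.58.1 within 10 classes of pooled methylation and Benjamini-Hochberg adjustment. Reads are summed over positions, so 1 read can count several times. Technical replicates of the culture entered the tests as separate libraries. The median dispersion ran from 24.1 to 39.7, far above that of independent reads. The code was tested on simulated data. edgeR 4.0.16 was an alternative. Means per library were compared by exact permutation, adjusted over 6 tests of level and 2 of coverage.

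The members, lists and tests were chosen with earlier results of these data known. Named windows are up to 5 called in each direction with the largest difference and groups that do not overlap, or, with none called, the 3 lowest in p, and the 3 intermediate windows farthest from 50% in each direction in bypass. The rule for bins said only 50 positions. Those were first counted over the 8 libraries together (220 bins) and then, after the values were seen, in each of the 8 (143 bins), which became the rule reported first; counting in the mean of the 8 or in each of 24 was also tried. The raised windows, the partly methylated positions and the counts over positions well covered in the other libraries, at 4 minimum coverages, were also chosen after values were seen. No library pair of a group agreed within sampling noise (lowest mean chi-square 17.4).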

Additional observations from a re-analysis of the deposited data

Results flagged for a closer look

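Bypass replicate 2 stood apart from the other bypass libraries on the 9 scaffolds. Its mean methylation was 31.0882%, while the other 3 lay between 31.94% and 32.00%. The 9 scaffolds minus the other KB scaffolds came to -2.90336 points in this library and to between -2.33 and -2.23 in the other 3. Both values lie farther from the nearest library than Dixon's limit for 4 values allows. Of 30 groups of 4 examined, chance gives about 1.5 such values, and the 2 values share the same windows. Without this library bypass minus senescent methylation was 2.93 points on the 9 scaffolds and 0.185 points relative to the others. The calls against senescence came to 17 higher and 2 lower, in place of 27 and 4. Leaving out bypass replicate 1, 3 or 4 instead gave 14 and 3, 14 and 2, and 8 and 3. The lower count of calls was thus not particular to replicate 2. Bypass replicate 2 is also the library in which the window KB708217.1:6175001-6176000 was not raised.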

How the results depend on the processing

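The coverage of the 9 scaffolds in bypass stayed below that of every other group under all alternatives run. Its relative value was 0.497 as reported, 0.512 with no upper limit on coverage, 0.461 at 20 or more reads and 0.619 over positions listed in all 8 libraries. Over positions of at least 30, 40, 60 and 80 reads in the 16 other libraries it was 0.543, 0.550, 0.545 and 0.553 with unlisted positions as 0, and 0.548, 0.552, 0.546 and 0.553 with 9 reads. The percent of bins under -0.5 was 98.6 as reported and 97.3 with positions counted over the 8 libraries together. Among the small differences that missed the threshold, MT minus N coverage turned to -0.0010 with no upper limit. B[a]P minus vehicle coverage turned to 0.033 over positions listed in all 8 libraries and to 0.00739 at 20 or more reads, and ran from -0.00668 to 0.00428 with 1 library left out. B[a]P minus vehicle methylation ran from -0.1296 to 0.560 with 1 library left out. The same of the 9 scaffolds minus the others ran from -0.227 to 0.1296, and was 0.159 with 5 positions per window and 0.491 with windows weighted by reads.

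Bypass minus senescent methylation was 2.71 points as reported, 0.990 at 20 or more reads and 1.33 over positions listed in all 24 libraries. Relative to other scaffolds it was 0.031 as reported, -1.74 at 20 or more reads and 1.33 weighted by reads. The replicate spread in bypass was 5.63 as reported, 5.95 at 20 or more reads and 2.98 with 5 positions per window. The distance of intermediate windows from 50% was 19.7 with windows of 40 to 60%. The difference in partly methylated positions was -1.73 at 10 to 19 reads, and -3.38 to -2.50 with 1 bypass library left out.

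Counts of called windows depended most on the test. Bypass against senescence gave 27 higher and 4 lower, with 0 and 0 by edgeR, 0 and 1 without squeezing, 10 and 2 with the replicate block, 15 higher with no filter on pooled methylation, 6 higher at 20 or more reads, 6 higher over positions listed in all 8 libraries and 2 lower with 5 positions per window. With 1 library left out they were 7 to 19 and 1 to 4. Bypass against vehicle pools gave 98 and 11, with 13 and 0 by edgeR, 56 and 7 without squeezing, 56 and 3 with 5 positions, 24 higher at 20 or more reads, 15 and 4 over shared positions and 6 lower with the replicate block. Senescence against MT colonies gave 15 and 5, with 0 and 0 by edgeR, 0 and 1 without squeezing, 3 and 2 with the replicate block, 4 and 2 with no filter, 5 and 3 at 20 or more reads, 3 higher over shared positions and 1 lower with 5 positions. With 1 library left out they were 0 to 11 and 1 to 4. The cause was not tested. Replicate numbers do not pair the samples. A correlation made to check pairing, which is not that of the methylation levels themselves, ran from -0.027 to 0.029 for same-numbered libraries. Depth limits all of this on the 9 scaffolds in bypass, where 555 windows could be tested against senescence and 1397 between senescence and MT colonies.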
